A study of Cardamine sp. SIM-2007 with 7 samples.

Results

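The genes described here are 3 auxin genes, GH3.3, IAA29 and YUC4, chosen by their gene symbols: each is the only probe set to which the platform annotation gives that symbol and no other. A probe set is the group of short probes on the array that measure 1 transcript. They are 3 of the 13513 probe sets with 1 gene symbol, among 22810 in all. The samples were inflorescence primordia of Cardamine kokaiensis, a wild crucifer that makes closed, self-pollinating flowers (cleistogamous, CL), open flowers (chasmogamous, CH) or flowers that the submitters named intermediate (INT). Plants of the CH group were chilled for 14 days before germination, those of the INT group for 14 days after germination, and those of the CL group for 28 days after germination. Flower type and chilling regime therefore changed together and cannot be told apart. Each of the 3 flower types had 2 biological replicates, and each replicate was RNA from 160 pooled primordia of the first inflorescence, which carried the first to eighth flower primordia. The RNA was hybridized to Arabidopsis ATH1 arrays, and 1 more array was hybridized with genomic DNA from leaves of unchilled plants. The labels give no genotype, accession or plant age.

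Auxin, mainly indole-3-acetic acid, is the plant hormone that positions organ primordia on the flanks of a meristem and drives the growth of floral organs. Its level and its action are set by separate steps, and each of the 3 genes stands for a different one. In Arabidopsis, YUC4 encodes a flavin monooxygenase of the YUCCA family, which carries out the last step of auxin synthesis from tryptophan, and the gene is active in inflorescence apices and young floral organs. IAA29 encodes a member of the Aux/IAA family, nuclear repressors that hold auxin response factors inactive until auxin triggers their breakdown, and it is induced by auxin and by shade. GH3.3 encodes an enzyme that joins amino acids to auxin and so takes it out of the active pool, and it belongs to the genes that respond early to auxin. These roles come from Arabidopsis and were not measured in Cardamine here.

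The values are fluorescence intensities scaled by the authors to a common array mean. For YUC4, the synthesis gene, the intensities were 427.1 and 404.3 on the CH arrays, 289.3 and 312.9 on the INT arrays and 408.7 and 479.9 on the CL arrays, replicate 1 first. Both INT arrays lay below all 4 of the others, while the CH and CL arrays overlapped. Among all 22746 probe sets tested, 7.69% had both INT arrays below all 4 others.

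For IAA29, the repressor gene, the intensities were 48.8 and 145.2 on the CH arrays, 104.3 and 31.6 on the INT arrays and 106.3 and 32.5 on the CL arrays, replicate 1 first. All 3 flower types overlapped. The arrays of one flower type lay further apart than the flower type means did: the brighter replicate was 2.97 times the dimmer in CH, 3.302 times in INT and 3.27 times in CL. Replicate 1 was the brighter in CL and INT and the dimmer in CH.

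For GH3.3, the conjugating enzyme gene, the intensities were 192.6 and 56.3 on the CH arrays, 30.5 and 29.3 on the INT arrays and 31.5 and 23.7 on the CL arrays, replicate 1 first. Both CH arrays lay above all 4 arrays of INT and CL, which was so for 6.25% of all probe sets. The 2 CH arrays themselves were 3.42-fold apart, against 1.04-fold in INT and 1.33-fold in CL.

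**Figure D1:**
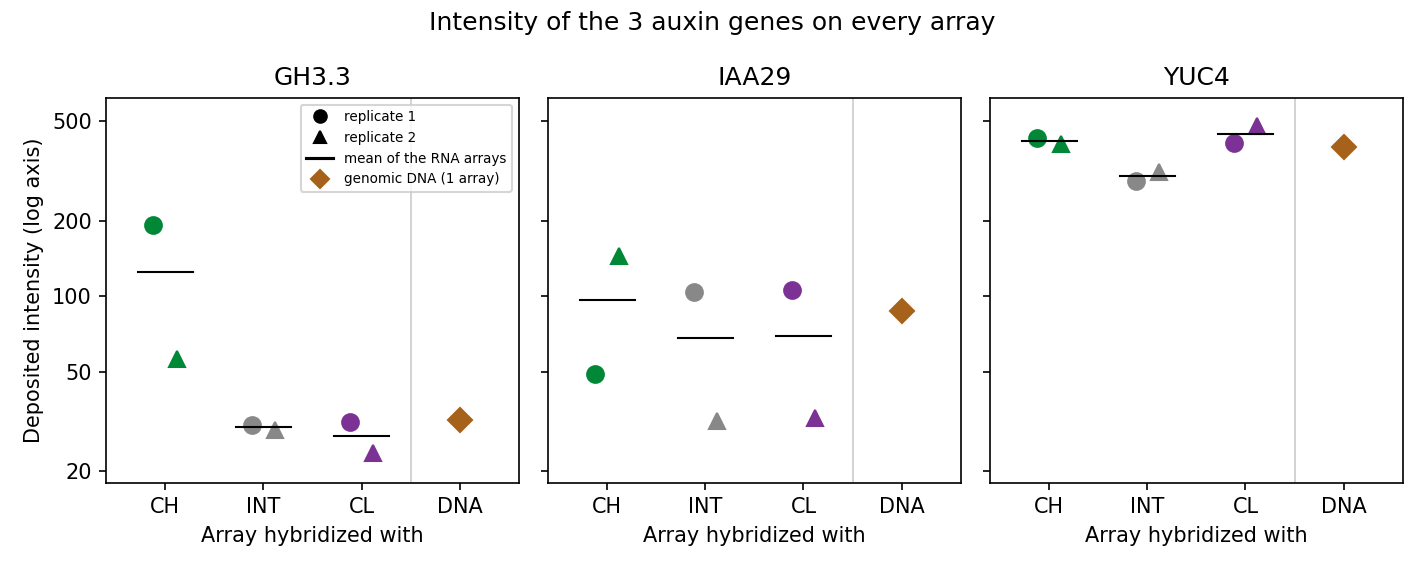
Deposited intensity (log axis) of GH3.3, IAA29 and YUC4 on the 2 CH, 2 INT and 2 CL arrays and on the genomic DNA array; circles are replicate 1, triangles replicate 2, bars the mean of a flower type's 2 arrays and diamonds the DNA array. GH3.3 is at 56.3 or more on the CH arrays and at 31.5 or less on the others, IAA29 spreads 2.97-fold or more within each flower type, and YUC4 stays between 289.3 and 479.9.

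Brightness on these arrays depends on how well a Cardamine transcript binds the Arabidopsis probes, so the genomic DNA array gives a measure of binding for each gene. YUC4 had a genomic DNA intensity of 393.4, close to the median of all probe sets, 397.7, and brighter than 49.6% of them. IAA29 had 87.2, brighter than 17.5% of probe sets, and GH3.3 had 32.1, brighter than 5.93%. All 20 other auxin genes named by the annotation were brighter on the DNA array than IAA29 and GH3.3, with intensities from 88.2 to 1507 and a median of 597.4. These DNA values come from 1 array with no replicate. Per the labels' protocols that array also served to calibrate the RNA arrays, so DNA and RNA intensities may not be independent measures.

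On the RNA arrays the mean over all 6 placed YUC4 above 60.8% of probe sets, IAA29 above 20.4% and GH3.3 above 15.0%. By array, YUC4 was brighter than 51.9% to 68.7% of probe sets on each of the 6 arrays. IAA29 was brighter than 11.8% to 33.3%. GH3.3 was brighter than 10.5% to 12.6% on the INT and CL arrays, 20.1% on CH replicate 2 and 37.1% on CH replicate 1. These places describe signal and do not order the genes by transcript amount, since weak binding and a low transcript level both give a dim probe set. The files hold no detection call, so whether GH3.3 was detected in INT and CL was not tested.

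**Figure D2:**
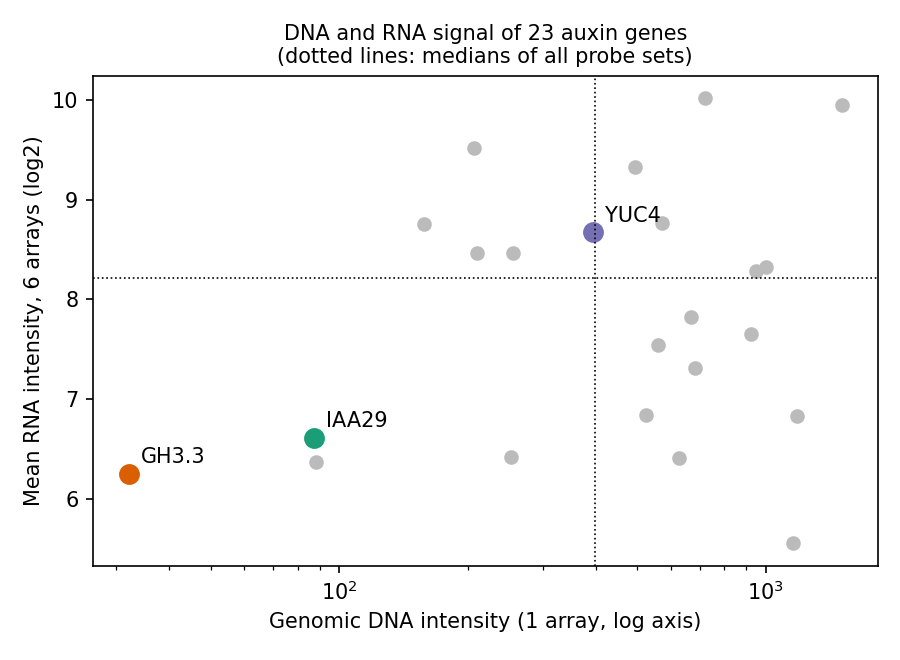
Genomic DNA intensity (1 array, log axis) against mean normalized log2 RNA intensity over 6 arrays for the 23 auxin genes named by the annotation; coloured points are GH3.3, IAA29 and YUC4, grey points the 20 others, and dotted lines the medians of all probe sets. GH3.3 at 32.1 and IAA29 at 87.2 have the lowest DNA intensities of the 23, and YUC4 at 393.4 lies beside the median of all probe sets.

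The 3 genes also differed in how closely replicates agreed. The spread between arrays of one flower type, as the residual SD of the fit on the log2 scale, was 0.15 for YUC4, 0.50 for GH3.3 and 0.83 for IAA29, against a median of 0.35 over all probe sets. For YUC4 only 11.7% of probe sets had a smaller spread, and for IAA29 90.1% had. GH3.3 and IAA29, both with weak DNA signal, thus had the wider spread, a description of 3 genes with no test. For IAA29 the SD was 0.75 in CL, 0.85 in INT and 0.90 in CH. For GH3.3 the spread lay in CH, where it was brightest, with an SD of 0.87 against 0.05 in CL and 0.08 in INT. YUC4 had an SD of 0.26 in CL, wider than GH3.3 there, and of 0.03 in INT and in CH. An offset added before log2 also shrinks the spread between dim arrays.

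Between closed and open flowers (CL against CH), GH3.3 had the greatest of the 3 differences with all arrays, though not without CH replicate 1, where it was -0.69 and IAA29 -0.98. After normalization it measured 5.80 ± 0.05 in CL against 7.10 ± 0.87 in CH on the log2 scale (SD, n = 2 each), so that CL minus CH was -1.30 with a standard error of 0.47 (95% interval -2.40 to -0.20). This scale adds an offset of 28.2 to each intensity, which shrinks the differences of dim genes. The mean deposited intensities were 124.4 in CH and 27.6 in CL, a ratio of 4.51 that was 2.04 without CH replicate 1, over CL values so dim that detection was not tested. The unadjusted p was 0.0260, and adjusted over 22746 probe sets limma gave 0.9999, so GH3.3 did not pass. A difference of greater size was found in 1.86% of all probe sets, and 14.8% had both CL arrays below both CH arrays, as GH3.3 did.

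The CL to CH difference of GH3.3 rested on 1 array for its size. It stood at -0.69 without CH replicate 1 (unadjusted p = 0.13) and at -1.91 without CH replicate 2 (unadjusted p = 0.00453, adjusted p = 0.89), and it was negative under every alternative that gave a value. With equal replicate numbers, CL minus CH was -1.88 for replicate 1 and -0.72 for replicate 2. The control probe set for 25S ribosomal RNA was 2652 on CH replicate 1 and 145.9 on CH replicate 2. It was brighter on replicate 1 of the other flower types too. GH3.3 was as well, though in INT only at 30.5 against 29.3. The other actin, GAPDH and ubiquitin controls lay closer together on the 2 CH arrays. The widest apart was an actin control at 1478 and 876.6, and a GAPDH control read 23766 and 24021. Over all probe sets 15.2% were brighter on replicate 1 in all 3 flower types after normalization. The part of the 25S control's signal in the result was not tested.

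IAA29 measured 6.52 ± 0.75 in CL and 6.86 ± 0.90 in CH (SD, n = 2 each), and CL minus CH was -0.35 (95% interval -1.88 to 1.18). With equal replicate numbers it was 0.82 for replicate 1 and -1.51 for replicate 2. The sign of the difference turned when CH replicate 2 was left out (0.29) or CL replicate 2 (0.18). YUC4 measured 8.88 ± 0.26 in CL against 8.77 ± 0.03 in CH, and CL minus CH was 0.11 (95% interval -0.60 to 0.81), and it stood at -0.08 without CL replicate 2. Neither gene passed (limma adjusted p = 0.9999 for both). The intervals are wide, and these values do not show that the 2 genes were level between CL and CH. limma called 0 of the 3 genes, where it called 0% of all probe sets at an adjusted p under 0.05 and 3.53% at an unadjusted p under 0.05.

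INT flowers, which had as many days of chilling as CH flowers but after germination, had lower means than CH for all 3 genes. GH3.3 measured 5.86 ± 0.08 in INT (SD, n = 2) against 7.10 ± 0.87 in CH, and INT minus CH was -1.24 (95% interval -2.34 to -0.14), with an unadjusted p of 0.0317. Leaving out CH replicate 1 gave -0.63, and leaving out CH replicate 2 gave -1.85. The mean deposited intensities had a ratio of 4.16, and of 1.88 without CH replicate 1. This comparison uses the same CH arrays as that of CL against CH, so the 2 differences of GH3.3 are not independent.

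YUC4 measured 8.38 ± 0.03 in INT against 8.77 ± 0.03 in CH, and INT minus CH was -0.40 (95% interval -1.10 to 0.31). With equal replicate numbers it was -0.40 for replicate 1 and -0.39 for replicate 2. The gap was wide against the spread of the gene's own INT and CH arrays, but the fit uses a spread shared across arrays and probe sets, and the unadjusted p was 0.229. IAA29 measured 6.45 ± 0.85 in INT, and INT minus CH was -0.41 (95% interval -1.94 to 1.12). Its sign turned without CH replicate 2 (0.23) or INT replicate 2 (0.19). In limma none of the 3 passed, with adjusted p of 0.9829 for GH3.3, 0.99 for IAA29 and 0.9836 for YUC4. Among all probe sets 0% passed, 4.76% had an unadjusted p under 0.05, and 17.8% had both INT arrays below both CH arrays, as GH3.3 and YUC4 did. Means were lower in INT for 50.8% of all probe sets.

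The last comparison set CL against INT flowers, with 28 days of chilling against 14, in each case given after germination. YUC4 measured 8.88 ± 0.26 in CL against 8.38 ± 0.03 in INT (SD, n = 2 each), which is 0.502 log2 units higher in CL (95% interval -0.20 to 1.20). Mean deposited intensities of 444.3 and 301.1 were 1.48-fold apart. Both CL arrays were above both INT arrays, as for 17% of all probe sets. The difference was 0.32 without CL replicate 2 and 0.69 without CL replicate 1, and limma gave an unadjusted p of 0.137 and an adjusted p of 0.985.

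GH3.3 and IAA29 had close means in CL and INT. GH3.3 differed by -0.06 (95% interval -1.16 to 1.04), and IAA29 by 0.06 (95% interval -1.47 to 1.59). Without CL replicate 1 or INT replicate 2 the IAA29 difference was -0.47 or -0.54, and without INT replicate 1 or CL replicate 2 it was 0.66 or 0.59. The intervals are too wide to show that these genes were at the same level. In this comparison, too, limma called 0% of all probe sets, while 4.4% had an unadjusted p under 0.05.

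**Figure D3:**
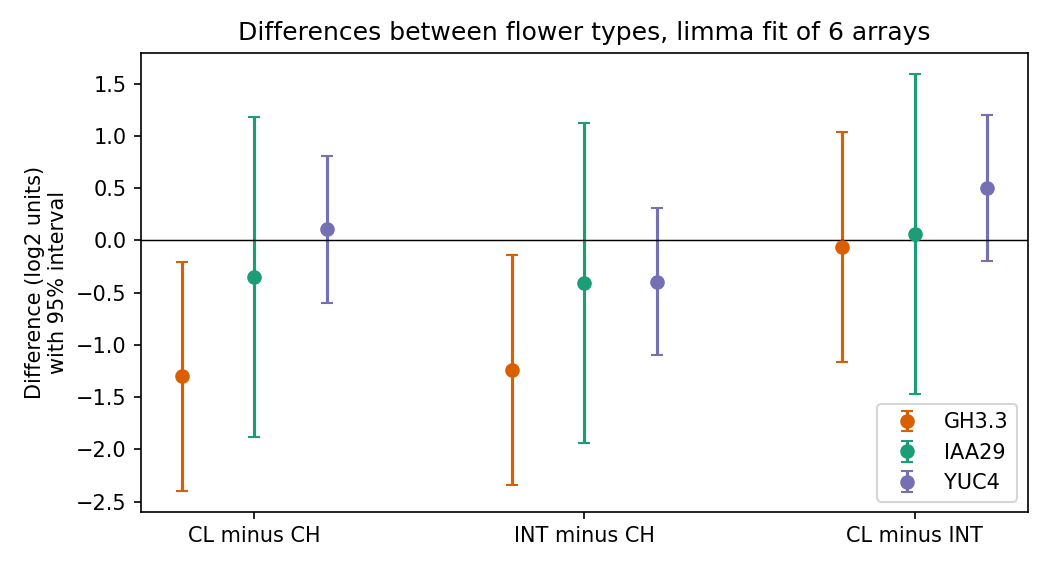
Differences of GH3.3, IAA29 and YUC4 in normalized log2 intensity for CL minus CH, INT minus CH and CL minus INT; points are the estimates and bars the 95% intervals of the limma fit of 6 arrays. The intervals of GH3.3 against CH, from -2.40 to -0.20 in CL and from -2.34 to -0.14 in INT, do not reach 0 before adjustment, and the other 7 do.

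The order of the flower type means was CH, INT, CL for GH3.3, CH, CL, INT for IAA29 and CL, CH, INT for YUC4, from high to low. For GH3.3, INT and CL did not differ beyond their spread. For IAA29 no neighbours did. For YUC4, CL and CH overlapped. A joint F-test of the 3 flower types in limma gave an unadjusted p of 0.044 for GH3.3, 0.805 for IAA29 and 0.276 for YUC4, with adjusted p of 0.996, 0.998 and 0.996. Of all probe sets 4.2% had an unadjusted F-test p under 0.05, and 0 passed.

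No array was the highest for more than 1 of the 3 genes: it was CH replicate 1 for GH3.3, CH replicate 2 for IAA29 and CL replicate 2 for YUC4. The lowest arrays were CL replicate 2, INT replicate 2 and INT replicate 1.

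Other auxin genes were taken from lists by role. Of 200 further symbols, some of them older names of the same gene, the annotation gave 20 a probe set of their own. No auxin response factor was among them, and the 200 held no SAUR gene. limma called 0 of these 20 in any comparison at an adjusted p under 0.05. Means were higher in CL than in CH for 11 and lower for 9, with a median difference of 0.08 against -0.01 over all probe sets. In INT against CH 8 were higher and 12 lower, with a median of -0.13 against -0.01. In CL against INT 13 were higher and 7 lower, with a median of 0.19 against 0.002. An unadjusted p under 0.05 was found for 1 of the 20 in CL against CH, where 3.53% of all probe sets had one, 1 in INT against CH (4.76% of all) and 2 in CL against INT (4.4% of all).

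Among synthesis genes, the annotation named 3 further YUCCA genes. YUC6, also an auxin-producing monooxygenase, had intensities of 181.2 and 571.9 on the CH arrays, 616.8 and 513.3 on the INT arrays and 451.1 and 305.1 on the CL arrays. Its lowest and second highest arrays were both CH, and its log2 difference was 0.78 in INT against CH and 0.23 in CL against CH. YUC2 differed by -0.31 in INT against CH and by 0.42 in CL against INT, the same signs as YUC4 (-0.40 and 0.502), with overlapping arrays in both. YUC11, added to complete the named YUCCA genes, ranged from 15.8 to 128.8, and its lowest array in INT and highest in CH had the same replicate number.

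Of the conjugation and turnover genes, WES1, which encodes another auxin-conjugating GH3 enzyme, had intensities of 1473 and 1010 on the CH arrays, 1156 and 1097 on the INT arrays and 709.5 and 790.8 on the CL arrays. Both CL arrays were below both CH arrays, as for 14.8% of all probe sets. CL minus CH was -0.69 on the log2 scale (95% interval -1.27 to -0.12), with an unadjusted p of 0.024. It did not pass (limma adjusted p = 0.9999). WES1 was named for its low F-test p, so this separation is no independent result. Between INT and CH, where GH3.3 differed by -1.24, WES1 differed by -0.13 and its arrays overlapped.

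The other 3 GH3 genes, added to complete the named GH3 genes, did not follow one pattern. GH3.1 was dim, at 26.7 and 23.2 on the CH arrays, 16.2 and 14.0 on the INT arrays and 17.6 and 15.4 on the CL arrays. Each of these intensities lay below the offset of 28.2, and whether GH3.1 was detected was not tested. Both CH arrays lay above all 4 others, as for GH3.3 and 6.25% of all probe sets. The log2 differences from CH were -0.26 in CL and -0.29 in INT. Its probe set was brighter than 90.1% of probe sets on genomic DNA, while that of GH3.3 was brighter than 5.93%. GH3.9 differed by 0.05 and 0.08 from CH in CL and INT, and GH3.17 by 0.40 and -0.07. UGT84B1, whose enzyme attaches glucose to auxin, had intensities of 47.9 and 166.1 on the CH arrays, 16.8 and 37.1 on the INT arrays and 50.8 and 64.9 on the CL arrays. It differed by -1.18 in INT against CH (95% interval -2.44 to 0.08). UGT84B1 was dim too, with INT replicate 1 below the offset, and brighter than only 17.7% of probe sets on genomic DNA. Its detection was not tested. None of these genes passed.

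Among the Aux/IAA repressors, 6 genes besides IAA29 were named, and 4 had higher and 2 lower means in CL than in CH. IAA31 had the lowest F-test p of the family, 0.0321 unadjusted. Its intensities were 243.0 and 199.0 on the CH arrays, 72.5 and 52.8 on the INT arrays and 166.8 and 142.4 on the CL arrays. Both INT arrays lay below all 4 others, as for 7.69% of all probe sets. Both CL arrays lay below both CH arrays, as for 14.8%. Because IAA31 was named for its low F-test p, this separation is no independent result. INT minus CH was -1.48 on the log2 scale (95% interval -2.54 to -0.42), and it did not pass (limma adjusted p = 0.983). IAA20 had the opposite sign, with a difference of 1.58 in INT against CH. Its INT arrays read 341.3 and 91.9 and its CH arrays 52.8 and 31.0.

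The remaining lists held few named genes. WAG2, a kinase that acts on auxin exporters, differed by 0.57 in CL and 0.85 in INT against CH. SKP2A, an F-box protein of the cell cycle that binds auxin, differed by -0.83 in CL against INT (95% interval -1.64 to -0.01). SPL, needed for the cells that form spores in anther and ovule, differed by -0.82 in INT against CH. SHI, of the family whose member STY1 activates YUC4 in Arabidopsis, differed by 0.58 in CL against CH, with CH arrays at 502.9 and 206.2. None passed.

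**Figure D4:**
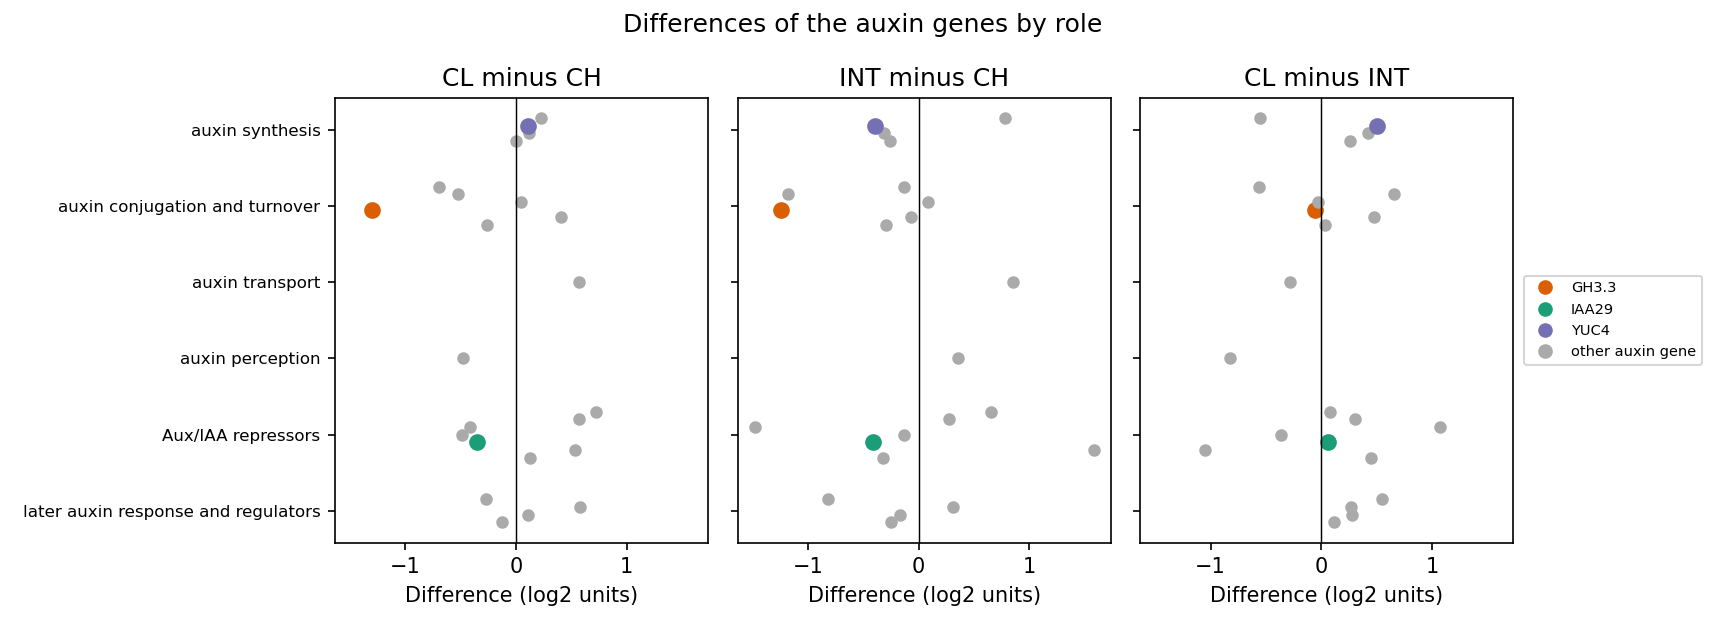
Log2 differences between flower types for the 23 auxin genes named by the annotation, by role, with GH3.3, IAA29 and YUC4 in colour and the other 20 in grey; vertical places within a row only separate the points. GH3.3 is the leftmost auxin gene for CL minus CH at -1.30, and IAA31 at -1.48 lies further left for INT minus CH. Roles with more than 1 named gene fall on both sides of 0, except the later response genes in CL minus INT, all above 0.

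The probe sets most like each gene were sought by Pearson's r over the 6 RNA arrays, among 1799 probe sets with 1 gene, above-median brightness and at least the median SD. For GH3.3 they were AT1G05720 (r = 0.98), AT1G59740 (r = 0.95) and AT2G36930 (r = 0.94), each with its highest mean in CH. For IAA29 they were AT1G67210 (r = 0.96), AT5G62770 (r = 0.94) and AT4G12700 (r = 0.94). For YUC4 they were AT5G62900 (r = 0.95), AT2G45540 (r = 0.95) and AT1G68230 (r = 0.95), each with its lowest mean in INT. Of the 1799, 8 probe sets exceeded 0.9 with GH3.3, 5 with IAA29 and 5 with YUC4. These probe sets were chosen for following each gene over the same 6 arrays, so their flower type means are no separate result. With 6 arrays these values are a description.

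Median intensity ranged from 260.8 to 301.8 over the 6 RNA arrays. Only 3 of 19 markers of inflorescence and floral meristems were named by the annotation: CLV3, a signal of the stem cell niche, UFO and JAG. None was listed at 0, the lowest intensity being 34.3. Their summed intensity was 825.1 to 851.8 in CH, 612.1 to 630.8 in INT and 499.5 to 761.7 in CL, so it was higher in CH, as GH3.3 was. Single markers did not follow the sum, CLV3 having its highest arrays in CL. UFO read 485.3 on CL replicate 2 against 434.7 on CH replicate 1. JAG read 301.2 on INT replicate 2 against 209.3 on CH replicate 2. Of all probe sets, 6.25% had both CH arrays above all 4 others. The leaf photosynthesis genes RCA and PSAN, 2 of 14 markers, summed to 8615 to 10704 in CH, 12570 to 13833 in INT and 9482 to 13518 in CL, so that the INT arrays, where YUC4 was lowest, lay above the CH arrays. Between INT and CH the log2 difference was 1.06 for RCA and 0.25 for PSAN, and the arrays of PSAN overlapped. The anther genes AMS and EMS1, 2 of 7, summed to 189.8 to 367.7 in CH, 371.6 to 589.5 in INT and 223.2 to 472.2 in CL. The cold genes COR15A, COR15B and COR47, 3 of 9, summed to 409.1 to 680.2 in CH, 470.9 to 484.1 in INT and 713.3 to 774.5 in CL, and the sum was, like YUC4, higher on both CL arrays than on both INT arrays. Of the 3 only COR15B had both CL arrays above both INT arrays on its own, as 17% of all probe sets did. The part of these cell types and responses in the auxin gene differences was not tested, and in pooled primordia fewer cells of a type and less RNA per cell cannot be told apart.

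Leaving out each array in turn showed how far single arrays set the differences. GH3.3 kept its sign in all 3 comparisons. Against CH the CH arrays moved its size, and in CL against INT it ranged from -0.12 to -0.006 as INT arrays were left out. IAA29 changed sign in all 3. YUC4 kept its sign in INT against CH, between -0.42 and -0.37, and in CL against INT, between 0.32 and 0.69.

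**Figure D5:**
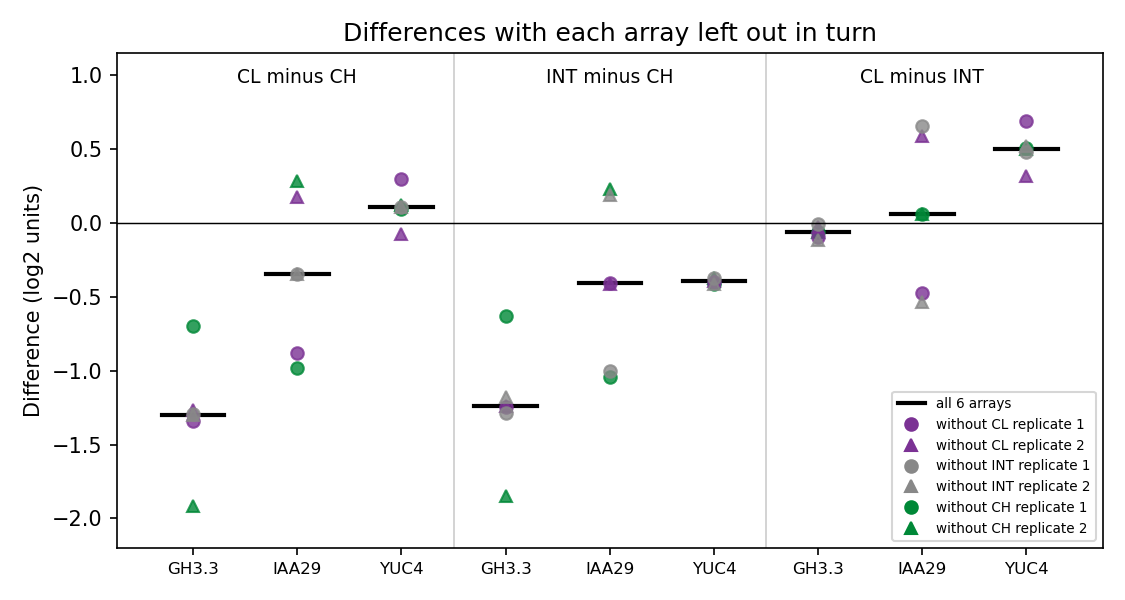
Log2 differences of GH3.3, IAA29 and YUC4 in the 3 comparisons with all 6 arrays (black bars) and with each array left out (points; colour gives the flower type and shape the replicate left out). GH3.3 against CH moves between -1.91 and -0.63, IAA29 falls on both sides of 0 in each comparison, and YUC4 in INT minus CH stays between -0.42 and -0.37.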

How the data were processed

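RNA of 6 samples and genomic DNA of 1 were measured on Affymetrix ATH1 arrays. The deposited intensity values are linear, 1 per probe set, and per the labels' protocols the DNA array served the authors to calibrate those of the RNA arrays. Every array had a mean of 500.0 without the lowest and highest 2% of probe sets. How probes were summarized, and at which DNA signal probes were kept, is not stated in the labels. The 64 control probe sets were left out, leaving 22746. An offset of 28.2, the median RNA intensity divided by 10, was added before log2, and the arrays were quantile normalized. limma 3.58.1 in R 4.3.3 fitted the 6 RNA arrays by flower type, with eBayes and a trend; tests were two-sided and adjusted over all probe sets (Benjamini-Hochberg), with 0.05 as threshold. The fit was run on simulated data with known changes, as a check of the code that does not measure its power on these arrays. Nothing was averaged across probe sets.

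Gene names came from the platform annotation (13513 probe sets with 1 gene, 503 with several, 8794 with none). No sequence or genome position was used here. The 3 genes and the lists were chosen with earlier results of these data known. From each list at most 2 further genes were named, those with the lowest F-test p; the other YUCCA and GH3 genes were added to complete their families after values had been seen. The labels call the samples biological replicates and give no batch. The main fit did not pair the samples by replicate number. Replicate differences correlated at 0.25 between CL and CH, -0.05 between CL and INT and -0.05 between INT and CH. These correlations cannot decide whether samples of one replicate number shared a run. Arrays have no read depth, and their number limits the precision. Alternatives covered normalization, offset, filters, the variance model, a replicate block, only the 4 arrays compared and leaving out each array. Plots were made in Python 3.11.15 (matplotlib 3.10.9).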

Additional observations from a re-analysis of the deposited data

How the results depend on the processing

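limma called 0 probe sets in each comparison and in the F-test under all alternatives run. GH3.3 kept its direction and stayed above the threshold under all of its 13 alternatives in each comparison. IAA29 reversed in CL against CH without CH replicate 2 (0.29) and without CL replicate 2 (0.18), in INT against CH without CH replicate 2 (0.23) and without INT replicate 2 (0.19), and in CL against INT without CL replicate 1 (-0.47) and without INT replicate 2 (-0.54). Its values over the arrays left out ran from -0.98 to 0.29, from -1.04 to 0.23 and from -0.54 to 0.66. YUC4 reversed in CL against CH without CL replicate 2 (-0.076), within a range from -0.076 to 0.29. The cause was not tested. Leaving 1 array in a group assumes that it varies like the others. With an offset of 1 the GH3.3 difference was -1.91 in CL against CH and -1.79 in INT against CH, and with an offset of 70.6 it was -0.90 and -0.86; a larger offset shrinks differences of dim genes by construction. With the replicate block the differences were the same, the adjusted p of GH3.3 was 0.999 in CL against CH and 0.897 in INT against CH, and no call changed. The filter on dim probe sets left out GH3.3 and IAA29, and the filter on genomic DNA left out all 3 genes, so these gave no value for them. Weak signal of GH3.3 and IAA29 over the probes limits what the arrays can show.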
